A study of Drosophila melanogaster with 2 samples.

Results

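The contacts described here are those of chromosome 4 of Drosophila melanogaster, taken as every pair of 10 kb bins in which at least one bin lies on chromosome 4. Of the 8265968 bin pairs with a di-tag in the map, 126857 met this rule, 7369 of them within chromosome 4 and 119488 between chromosome 4 and another arm. A di-tag is a sequenced ligation product that joins a pair of genomic positions lying close together in the fixed nucleus. Hi-C was performed with the 4-base cutter DpnII on Kc167 cells, an established Drosophila cell line, with no treatment named in the labels, in 2 replicates. There is 1 group and no control, and the authors combined both replicates into 1 map on release 5 of the genome before deposition. No value therefore has a replicate spread, and no test between groups is possible. Chromosome 4 is set instead beside the 5 large arms (2L, 2R, 3L, 3R and X), which gave 115 windows of the same size as its largest domain without overlap. Intervals in brackets are 95% intervals that cover counting error only, and ranks among the windows are descriptions of this map.

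Chromosome 4, the dot chromosome, is the smallest of the fly autosomes. Its sequenced arm carries genes among repeated sequences in chromatin that binds heterochromatin protein HP1a and the chromosome-specific protein POF, and many of those genes are nevertheless active. They include cubitus interruptus (ci), the transcription factor of Hedgehog signalling, eyeless (ey) and twin of eyeless (toy), the Pax6 genes of eye development, and pangolin (pan), the Wnt pathway TCF factor. The Release 6 annotation places 114 genes on chromosome 4, of which 80 code for protein. Topologically associated domains (TADs) are stretches of a chromosome that contact themselves more than their neighbours. The Het arms are separate sequences of pericentric heterochromatin that release 5 keeps apart from the main arms.

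Chromosome 4 was sampled about as deeply as the large arms. In all, 415265 of the 34287983 di-tags had an end on chromosome 4 (1.21%), and 1.00% of the filled bins of the genome lay there. These shares are not on the same scale, because a di-tag between arms counts for each of them. A bin counts as filled when it holds at least 1 di-tag, and 128 of the 136 bins of chromosome 4 were filled (94.1%). Their median was 5286.5 di-tags, with quartiles of 4277 and 6516. This median lay between that of X (5094) and that of 2L (5531.5), and 3R had the highest (6046.5). Both ends of the chromosome were nearly empty. The 5 filled bins with the fewest di-tags were all at the start, with 1, 1, 1, 5 and 68 di-tags in the bins that begin at 1, 10001, 20001, 40001 and 50001, and the next bin held 4182. In total 9 filled bins fell under 0.25 of the chromosome median.

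The 5 fullest bins lay between 550001 and 690000. They began at 590001, 620001, 550001, 640001 and 680001 and held 9999, 9555, 9153, 9029 and 8547 di-tags. The plot of coverage along the chromosome shows this rise together with another one around the bin at 1080001, which held 8289 di-tags.

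**Figure D1:**
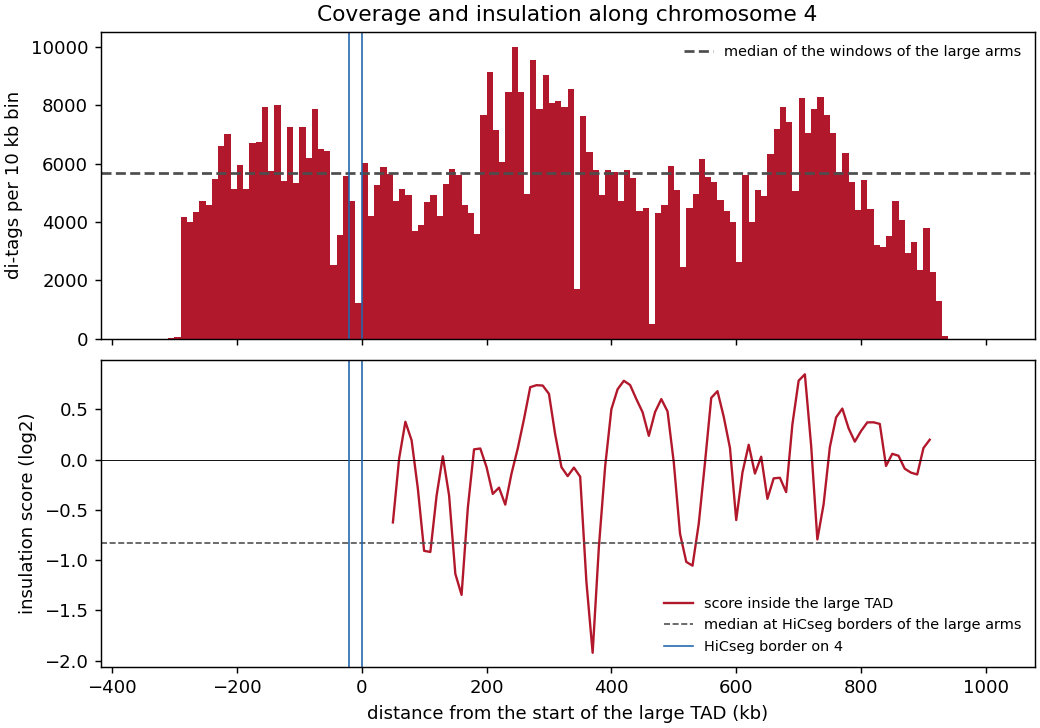
Di-tags per 10 kb bin (top, bars) and insulation score on a log2 scale (bottom, line) along chromosome 4, against the distance in kb from the start of the large TAD. Blue lines mark the HiCseg borders on chromosome 4, and dashed lines mark the median of the 115 windows (5659 di-tags) and the median score at borders of the large arms (-0.83). The lowest score, -1.92, lies 370 kb into the TAD.

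HiCseg, the program with which the authors segmented the normalised map, gave chromosome 4 only 3 segments. The first ran from 4:60001 to 330000 (270 kb, 27 filled bins, median 5727 di-tags). The second ran from 330001 to 350000 (20 kb) and consisted of a bin with 4710 di-tags and a bin with 1227, which is under 0.25 of the chromosome median. The last ran from 350001 to 1351857 (1002 kb, 101 bins, 94 of them filled). It is called the large TAD below. On the large arms, the 1305 segments had a median of 60 kb and the largest was 620 kb, so the large TAD was the longest segment in this comparison. Its filled bins held between 74 and 9999 di-tags.

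The large TAD had slightly fewer di-tags per bin than most windows of the large arms. Its median was 5196.5 di-tags per filled bin, and the median over the 115 windows was 5659, a ratio of 0.918, with 33 windows below it. After normalisation the order turned, with a ratio of 1.04 and 76 windows below the large TAD. A normalised total does not measure depth, however. The window with the fewest raw di-tags per bin (median 1619) had the highest normalised median (34053.5). In raw di-tags the ratio stayed below 1 with shifted windows (0.913), without low bins (0.938) and as means (0.980).

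Contacts with both ends inside the large TAD made up 61.4% of the di-tags that touch it (Wilson interval 61.2 to 61.6%). This exceeded all 115 windows, whose median was 48.6% and whose highest value was 56.9%. A window in the middle of an arm has neighbours on both sides, whereas the large TAD has 350 kb of chromosome on one side and the chromosome end on the other. Windows of the same size were also laid flush with the first and the last bin of each large arm, so that they too have neighbours on 1 side only. The match is partial, because the rest of a long arm lies on that side, against 350 kb beside the large TAD. The comparison therefore cannot allow for how little of its own chromosome lies outside the large TAD. These 10 windows had a median of 52.7% and a highest value of 56.9%, below the large TAD. In the normalised map the TAD stood at 56.8%, with 1 of the 115 windows above it (57.9%) and 2 of the 10 flush windows above it (58.7 and 60.2%). For chromosome 4 as a whole, 69.3% of di-tags had both ends on the chromosome (69.2 to 69.5%), and on the large arms, which are far longer, this share was 77.6 to 81.0%.

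Contact fell with distance inside the large TAD much as it did in windows of the large arms. The decay exponent, the slope of log10 mean normalised signal on log10 distance from 20 to 500 kb, was -1.24 in the large TAD. The windows had a median of -1.28 and quartiles of -1.41 and -1.18, and 74 of the 115 were steeper than the large TAD. The level was higher at short range. At 20 kb the mean normalised signal per bin pair was 586 in the large TAD and 413 at the median of the windows, 108 of which lay below it. In raw di-tags the difference at 20 kb was smaller, with 251 against 202 and 96 windows below. At 100 kb the normalised values were 120 and 101.

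Between 200 and 300 kb the large TAD stayed nearer to the windows, at 1.02 to 1.24 times their median over 11 distances. The mean signal at 200 kb was 43.1 in the large TAD against a window median of 41.8, at 280 kb it was 31.5 against 25.3, with 82 of the 115 windows below it, and at 300 kb it was 23.8 against 23.4. Farther out the large TAD was higher again, with 13.5 against 8.93 at 500 kb and 11.9 against 5.29 at 700 kb. Over the whole range from 300 to 500 kb its mean was 1.38 times the window median, and 88 of the 115 windows were below it. At 700 kb only 24 bin pairs of the large TAD could be measured, with a mean of 5.25 raw di-tags each.

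**Figure D2:**
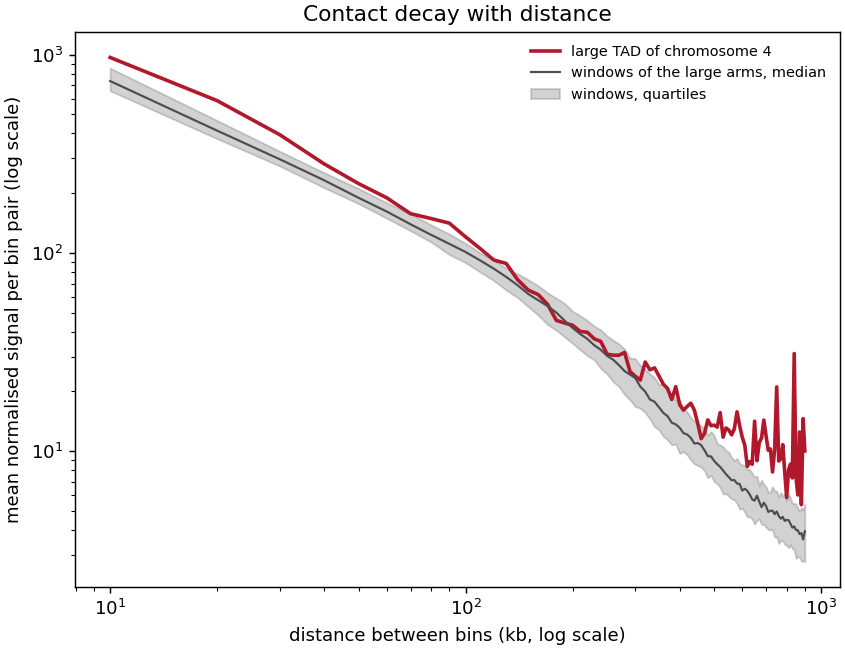
Mean normalised signal per bin pair against the distance between bins in kb, both on log scales, for the large TAD of chromosome 4 (red) and the 115 windows of the large arms (grey line, median, with quartiles shaded). The red line runs above the grey band at 20 kb (586 against a median of 413), comes near the median at 200 kb (43.1 against 41.8) and 300 kb (23.8 against 23.4) and lies above it again at 500 kb (13.5 against 8.93).

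The large TAD was not uniform, although no HiCseg border lies inside it. The insulation score at a bin edge is the log2 ratio of contact across the edge to contact within the 50 kb on either side, each corrected for distance. A low score means that few contacts cross. Within the large TAD the score had an SD of 0.55, close to the median of the windows (0.57), with 47 of the 115 windows below it. It fell under -1 at 6 edges, which is also the median of the windows. In raw di-tags the score fell under -1 at 8 edges, against a window median of 5, with 88 windows below and 19 above. The windows held a median of 11 HiCseg borders, between 3 and 16, and the large TAD held 0.

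The deepest edge of the large TAD was at 720 kb, with 720001 as the first base to its right, 370 kb into the TAD. There 1200 di-tags crossed the edge and 6419 lay within the 50 kb on either side, and the score was -1.92. Only 10 of the 115 windows had a deeper minimum. When scored over the whole chromosome with bins under 0.25 of the median left out, this edge had -1.95, and 4 of the 1264 scored HiCseg borders of the large arms (0.316%) were lower. The median of those borders was -0.83. The edge was picked as a minimum, whereas the borders were scored at their called positions, so the comparison with borders favours it. The same holds for the next minima. Set against the minima of the windows, which is the like comparison, 10 of 115 were deeper. The edge was not itself in the HiCseg list.

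The bin from 690001 to 700000, which is the third bin left of the edge, had a low total of 1690 di-tags. Without it the deepest score in the large TAD was -1.84 and 12 windows were deeper. With squares of 30 kb in place of 50 kb the deepest score anywhere in the large TAD was -1.90, and 17 windows were deeper. With squares of 100 kb it was -1.19, and 79 windows were deeper. At 100 kb the edge at 720 kb was thus no lower than -1.19, so its score of -1.92 holds at the 50 kb scale only.

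The next minima were shallower. At 510 kb the score was -1.34, with 1904 di-tags across and 7597 within, and over the whole chromosome it was -1.38, with 10.2% of the large-arm borders lower. At 880 kb it was -1.05, with 1499 di-tags across and 5619 within, and over the whole chromosome -1.08, with 27.8% of borders lower. Of the called borders on chromosome 4, the one at 330 kb scored -1.38 and the one at 350 kb scored -0.17, where 89.6% of the borders of the large arms were lower. The edge with the lowest score of the chromosome thus lay inside its large TAD, and the called start of that TAD had a higher score than most called borders. The bin directly left of that start, with 1227 di-tags, was left out of the score as a low bin. The 50 kb to the left of the start also holds the called border at 330 kb. Contacts across that border count as contact within, so the score at 350 kb does not measure the start alone.

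The edges at 510 and 720 kb divide the large TAD into a left, a middle and a right block. Contacts of each pair of blocks were expressed as observed over expected, where expected is the chromosome 4 mean at the same distance. The left and middle blocks contacted each other at 0.770 times the expected level, the left and right blocks at 0.785 times, and the middle and right blocks at 0.902 times. The first segment, on the far side of the called borders, contacted the left block at 1.18 times, the middle block at 1.08 times and the right block at 1.08 times the expected level. On this scale the first segment met the blocks of the large TAD more often than those blocks met each other. The blocks were cut at edges of low score, so low contact between blocks that meet at these edges is partly built in. The expected level is an average over the same pairs. Low values between blocks therefore go with higher values elsewhere, among them those of the first segment.

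The same contacts can be set against the mean of the large arms at equal distance. By that measure the first segment contacted the right block, which lies beyond the other blocks, at 3.15 times the large-arm level. The first segment stood at 1.37 times with the middle block and at 1.25 times with the left block. The left and right blocks stood at 1.33 times and the middle and right blocks at 1.12 times. By this measure the first segment thus did not exceed every pair of blocks. Only the left and middle blocks fell below the large arms, at 0.809 times. The blocks were chosen from the scores, so these values are descriptions.

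**Figure D3:**
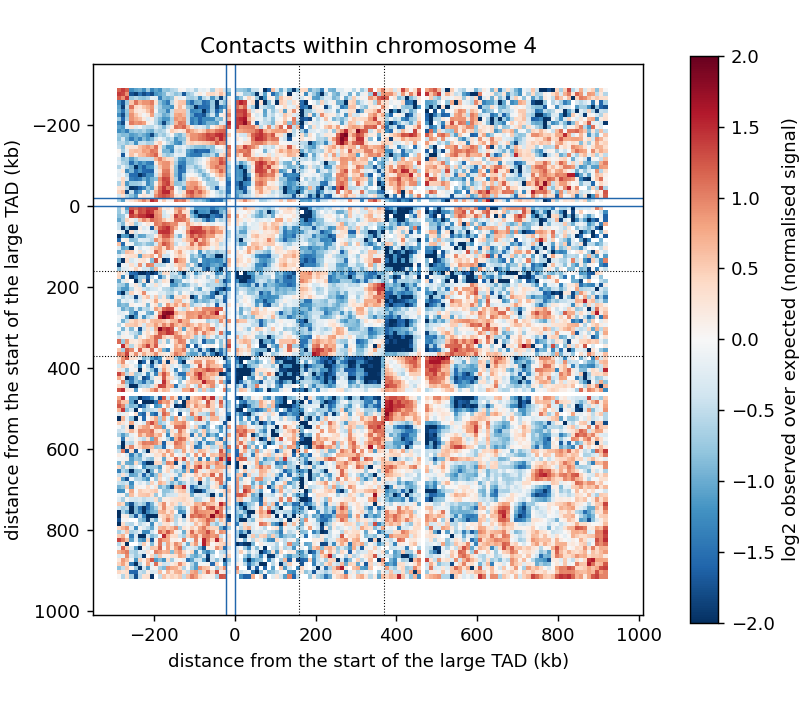
Contact map of chromosome 4, with both axes in kb from the start of the large TAD and colour for log2 of observed over expected normalised signal (red above, blue below the chromosome 4 mean at that distance). Blue lines mark the HiCseg borders, dotted lines the uncalled edges 160 and 370 kb into the TAD, and white bins hold under 0.25 of the median di-tags. Blue is deepest where the left and middle blocks meet the part of the right block next to the 370 kb edge.

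The 3 windows of the large arms with the fewest HiCseg borders are the nearest match to a long segment without borders, and they differed from it. The window on 2L from 15150001 to 16160000 held 3 borders, with an insulation SD of 0.31, a minimum of -0.97 and an exponent of -0.77. That on 2L from 14140001 to 15150000 held 4 borders, with 0.37, -1.20 and -0.92. That on X from 14140001 to 15150000 also held 4, with 0.41, -1.67 and -0.84. The large TAD, with 0.55, -1.92 and -1.24 for these quantities, was more deeply divided and decayed more steeply than each of them.

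Contacts between chromosome 4 and other arms were sparse but numerous in sum. There were 127413 trans di-tags, and 93.8% of the trans bin pairs held a single one. With the large arms chromosome 4 made 8.03 di-tags per 100 filled bin pairs (7.98 to 8.07), whereas large arms of different chromosomes made 6.29 with each other, a ratio of 1.28. For the large TAD alone the rate was 8.13, and the 115 windows had a median of 6.23, with 6 windows above it. The 5 arms took similar amounts, from 7.29 per 100 pairs with 2R and with X up to 8.59 with 3R.

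Pooled over the large arms, contact with chromosome 4 was higher in the zones next to the centromere, and lower in those next to the telomere, than in the middle. The proximal zone is the 1 Mb next to the centromere, the distal zone the 1 Mb at the other end, and the middle zone the rest. Over the 5 arms together, chromosome 4 made 13.0 di-tags per 100 pairs with the proximal zones, 7.87 with the middle and 6.61 with the distal zones. The ratio of proximal to middle was 1.65 (1.61 to 1.68), and that of distal to middle was 0.840 (0.814 to 0.866). Among large arms of different chromosomes, the same zones received 5.09, 6.33 and 6.77 di-tags per 100 pairs, which is the opposite order.

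The raw gradient was uneven between arms. The proximal zone of 3R made 26.6 di-tags per 100 pairs with chromosome 4, 3.32 times its middle, and that of 2L made 15.3, 1.84 times its middle. That of X made 7.82, 1.07 times its middle. The proximal zone of 3L made 7.98 and that of 2R 6.63, which are 0.975 and 0.893 times their middle zones. Without 3R the pooled ratio was 1.21, and without 2L and 3R it was 0.975, so in raw di-tags the excess rested on those arms.

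The proximal zones also differed in how many di-tags their bins held at all. Their median was 7191 per bin on 3R, 3424 on 2L, 3022 on X, 2081 on 2R and 1295.5 on 3L, whereas middle zones had between 5156 and 6091. Contact was therefore also taken as observed over expected, where each partner bin's expected value is its mean contact with large arms of other chromosomes, scaled to the total of chromosome 4. On that scale the proximal zone exceeded the middle on all 5 arms, by 2.61 times on 3R, 1.83 on 2L, 1.80 on 3L, 1.58 on X and 1.57 on 2R. Pooled, the ratio was 2.01 (1.97 to 2.06).

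The distal zones were low on every arm on this scale, at 0.731 times the middle on 3R, 0.742 on 2L, 0.771 on 2R, 0.826 on 3L and 0.838 on X. In raw di-tags per pair the distal zone of 3L was not low, with 8.67 per 100 pairs against 8.19 in its middle. In steps of 1 Mb, observed over expected peaked in the first Mb from the centromere on 2L (1.86), 3R (2.59) and X (1.42), and in the second Mb on 2R (1.42) and 3L (2.05). The last steps at the telomere side stood between 0.702 and 0.876, but none was the lowest of its arm. The steps did not reach the very end of some arms, since the last one stopped at base 540001 on 3L and 430001 on X. The lowest step was 0.629 on X and began 11 Mb from the centromere side, and on the other arms the lowest steps were 0.652 to 0.768 and began 18 to 21 Mb from it. Raw contact peaked at 9.92 per 100 pairs in the step that began at 7 Mb on 2R and at 10.6 in that at 6 Mb on X.

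**Figure D4:**
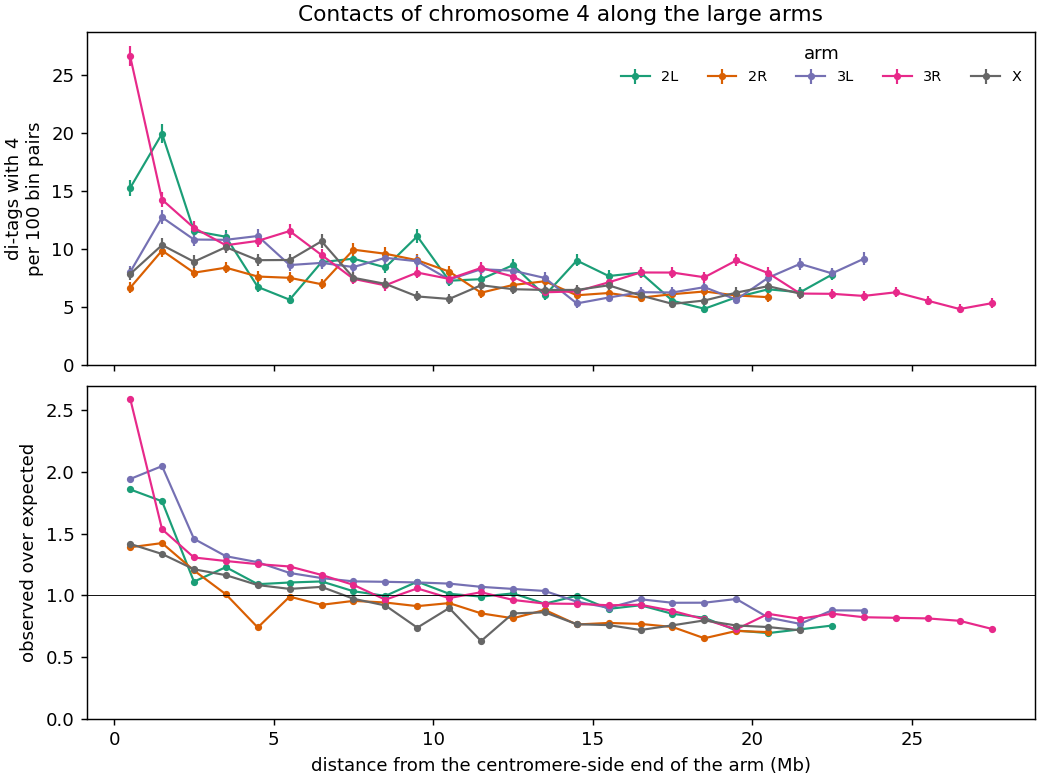
Contact of chromosome 4 with the large arms in steps of 1 Mb from the centromere-side end of each arm, as di-tags per 100 filled bin pairs with 95% Poisson intervals (top) and as observed over expected (bottom). Raw contact in the first Mb is highest on 3R (26.6) and low on 2R (6.63). Observed over expected is above 1 in the first Mb and below 1 in the last step of all 5 arms, with 2.59 in the first Mb of 3R.

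The excess with proximal zones extended along chromosome 4. In each of the 119 bins with at least 0.25 of the chromosome median, contact per pair with proximal zones exceeded that with middle zones (119 of 119), with ratios from 1.06 to 2.55. On the large arms, 2301 of 11497 bins did so towards other chromosomes (20.0%). These bins have other partners, since bins on 3L and 3R lack the well covered proximal zone of 3R among theirs. As observed over expected, the count was again 119 of 119 on chromosome 4, with a median ratio of 1.96 and quartiles of 1.83 and 2.18. On the large arms it was 5291 of 11497 (46.0%), with a median of 0.967. The expected values come from the large arms themselves, so observed and expected nearly match there by construction. The 46.0% is therefore not an independent background. The first segment had a ratio of 1.86 (1.78 to 1.94) and the large TAD 1.58 (1.54 to 1.62). Within the large TAD the left, middle and right blocks had 1.54, 1.58 and 1.59, with overlapping intervals.

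Trans shares were high towards both ends of the covered sequence. Bins there have few or no covered neighbours on the outer side to contact in cis, and how much this adds was not tested. The bins that begin at 60001, 70001 and 80001 had 36.2, 30.4 and 27.4% of their di-tags in trans, whereas the median of the 119 bins was 18.5% and the upper quartile 20.4%. Of their trans di-tags, 7.72, 6.74 and 7.13% went to Het arms, against a median of 4.40%. Near the other end, the last 7 of the 119 bins, which begin at 1200001 to 1260001, had 20.5 to 26.3% of their di-tags in trans and 4.42 to 9.09% of these on Het arms. The bin at 1260001 had the highest Het share of the 119 bins, 9.09%, from 52 Het di-tags. The bin with the most trans di-tags on the large arms began at 1050001, with 2087 and a trans share of 26.5%.

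Among equal-sized windows, the large TAD fell in the range of those nearest to a centromere. Its proximal over middle ratio of 1.58 was exceeded by 1 of the 115 windows, and the median window had 0.780. The 5 windows nearest to a centromere had 1.10 to 1.62, the 105 in the middle of an arm 0.532 to 1.15 and the 5 nearest to a telomere 0.576 to 0.716. For the distal zones the large TAD had a ratio of 0.828, within the range of the windows nearest to a centromere (0.776 to 0.889), while the windows nearest to a telomere had 1.44 to 2.49.

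**Figure D5:**
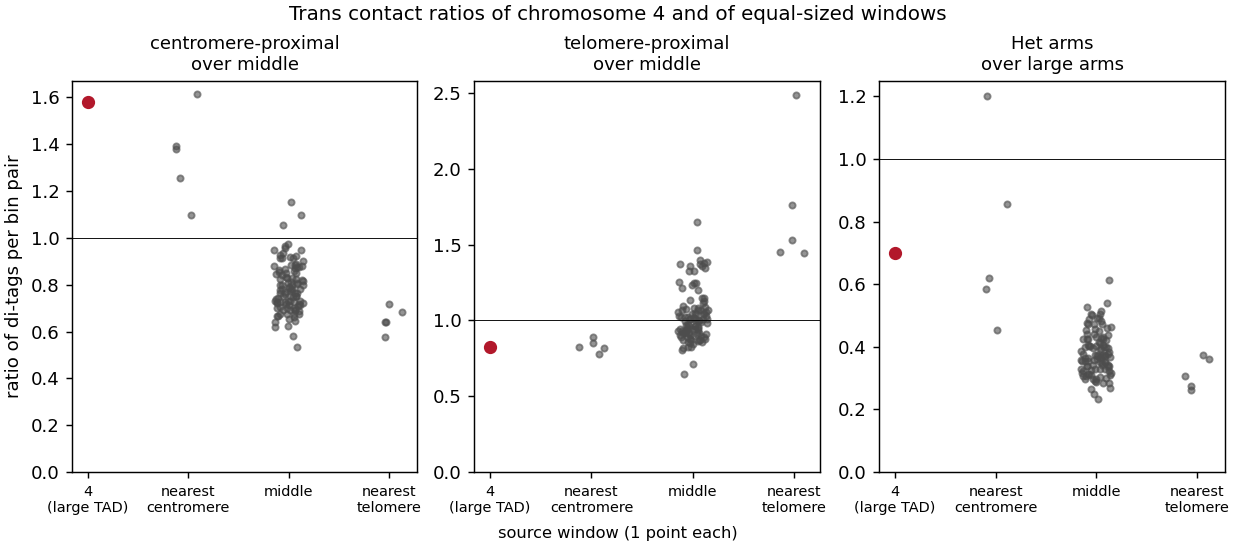
Ratios of raw di-tags per bin pair for the large TAD of chromosome 4 (red) and the windows of the large arms (grey, 1 point each, by place on the arm), for contact with centromere-proximal over middle zones, telomere-proximal over middle zones, and Het arms over large arms of other chromosomes. The red point (1.58, 0.828 and 0.700) lies within the range of the 5 windows nearest to a centromere in each panel.

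Chromosome 4 also contacted the Het arms more than the large arms did. Over all 6 Het arms it made 5798 di-tags, or 5.74 per 100 pairs (5.59 to 5.89), whereas large arms made 2.42 with Het arms of other chromosomes, a ratio of 2.38 (2.32 to 2.44). This exceeds the 1.28-fold difference towards the large arms, and observed over expected was 1.82 (1.77 to 1.87). The ratio was highest for 3LHet, with 7.64 di-tags per 100 pairs for chromosome 4 and 2.82 for the large arms (2.71 times). The values were 6.34 and 2.80 for 3RHet, 4.04 and 2.02 for 2RHet, 3.68 and 1.90 for 2LHet, and 7.13 and 3.73 for XHet. YHet gave 1 di-tag with chromosome 4 and 49 with the large arms, which allows no statement.

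In raw di-tags per pair, contact of chromosome 4 with the Het arms was lower than with the large arms, at 0.715 times (0.696 to 0.734). Bins of the Het arms held few di-tags at all, with medians from 2 on YHet to 1395.5 on XHet, against 5558 on the large arms. The direction of this ratio thus rested on the scale, and it was above 1 as observed over expected. Without YHet, the raw ratio of Het to large arms was 0.700 for the large TAD and 0.373 for the median window, whose partners leave out the arms of its own chromosome. As observed over expected, which allows for the partners, the ratio was 1.74 for the large TAD and 0.979 for the median window. The windows lie on the arms that supply the expected values, so a value near 1 is built in for the median window. On either scale 2 of the 115 windows were higher, both of them nearest to a centromere.

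Few single bin pairs held many trans di-tags. Of 1514880 filled bin pairs between chromosome 4 and the large arms, 39 held more than 3 di-tags (0.00257%, 0.00188 to 0.00352%), against 0.00883% of pairs between large arms of different chromosomes. Of these 39, 20 lay on 3R, 9 on 2L, 5 on X, 3 on 2R and 2 on 3L, with 19 in proximal, 18 in middle and 2 in distal zones. The filled bin pairs number 62464 in proximal, 1390592 in middle and 61824 in distal zones, so such pairs were densest in proximal zones. The share of 0.00883% between large arms was not split by zone. Whether this density is particular to chromosome 4 therefore cannot be told. By arm they number from 269440 on 2R to 356864 on 3R.

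The fullest pair joined 4:860001-870000 with 2L:21700001-21710000 and held 15 di-tags, where 0.0377 were expected. The 24 pairs around it held 2 di-tags together. The pair of 4:330001-340000 with X:9990001-10000000 held 10 di-tags, with 0.0226 expected and 5 in the 24 pairs around it. The pair of 4:80001-90000 with 2R:1240001-1250000 held 7, with 0 around it. The next pairs, of 4:70001-80000 with 2L:22250001-22260000 and of 4:180001-190000 with 3R:40001-50000, held 5 each. Around the fullest 3 pairs there were thus few di-tags.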

How the data were processed

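The 2 Hi-C replicates of Kc167 cells form 1 group. Reads were aligned by the authors to genome release 5 (HiCUP 0.5.7, with Bowtie2 2.2.6 in the submitters' processing notes), and contacts of both replicates were combined and binned at 10 kb. The first deposited map gives the count of di-tags per bin pair. The other deposited map gives a normalised signal for the same pairs (GOTHiC 1.6.0), from which the authors derived HiCseg segments and dropped the weakest borders. The map holds 34287983 di-tags. No depth per replicate was used, and 0 columns of other samples were found.

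The windows hold 101 bins each and were laid from the first bin of each arm, so the last window of an arm stops short of its end. Raw counts were used for coverage, shares and trans contacts, and the normalised signal for decay and insulation, with the large arms scored in the same way. Observed over expected in trans and the low-bin limit of 0.25 of the arm median are as given with the results. Intervals are Wilson for shares, exact Poisson for rates and exact Clopper-Pearson for ratios, all at 95%. PCR copies that survived the authors' filter are not independent molecules. No gene was tested. Regions named are all segments on chromosome 4, its fullest and emptiest bins, the 3 deepest insulation minima, the fullest and most enriched trans pairs, all zones and Het arms, and the windows with the fewest borders. The bins with most trans di-tags, those near both ends of the covered sequence and the blocks were chosen after their values were seen. The members and rules were chosen with earlier results of these data known, and 6 of the 43 alternatives were added after seeing the data. The statistics were tested on simulated maps. The software was matplotlib 3.10.9, pandas 2.3.3, scipy 1.17.1 and numpy 2.4.6 under Python 3.11.15. No genome of release 5 was used, so no sequence or gene position is given.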

Additional observations from a re-analysis of the deposited data

How the results depend on the processing

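Of 43 alternatives to 8 results, 2 changed only the windows compared and left the share of contacts inside the large TAD at 61.4% by construction. Of the other 41, 9 values stayed within the counting interval (or, where there is none, were equal to 2 decimals), and 4 turned direction. Coverage of the large TAD over the windows was 1.04 in the normalised signal (turned), 0.913 with shifted windows, 0.938 without low bins and 0.980 as means. Its share of contacts inside was 56.8% in the normalised signal and 58.1% without pairs in 1 bin. The decay exponent was -1.20 in raw counts, -1.22 after iterative correction, -1.22 without low bins, -1.30 from 50 to 500 kb and -1.21 without empty pairs. The ratio at long range was 1.37 in raw counts, 1.32 after iterative correction, 1.36 without low bins, 1.31 with shifted windows and 1.88 from 500 to 800 kb. The insulation SD was 0.56 without low bins, 0.49 with 30 kb squares, 0.47 with 100 kb squares and 0.54 against the mean of the large arms. The proximal over middle ratio was 1.71 with 2 Mb zones, 1.34 with equal parts of each arm, 2.85 in the normalised signal, 2.01 as observed over expected, 2.16 without low bins, 1.58 for the large TAD alone, 1.21 without 3R and 0.975 without 2L and 3R (turned). The distal over middle ratio was 0.783 as observed over expected. The Het over large arm ratio was 9.06 in the normalised signal and 1.82 as observed over expected (both turned), and 0.884 without low bins. Median normalised totals per bin were themselves higher on the Het arms, from 19587.5 on YHet to 64465.2 on 2RHet. On the large arms they were 11074 on 3R to 12939.1 on X. The causes were not tested. No paired analysis was possible because the map pools both replicates. Depth limits single trans pairs, 93.8% of which hold 1 di-tag.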

Other observations

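Bins of the large arms were also ranked by their summed contact with chromosome 4 relative to expected, among bins with at least 20 such di-tags, a ranking chosen after seeing the data and given without a test. The highest was X:9990001-10000000, in the middle of the arm, with 47 di-tags where 2.59 were expected (18.2 times, 13.4 to 24.2). These were spread over 23 bins of chromosome 4, at most 10 in 1 of them, and the whole bin held 1219 di-tags. Next came 3R:100001-110000, with 36 di-tags against 4.40 expected (8.17 times), and of the 10 highest bins 8 lay on 3R up to base 170000 and 1 at 3L:24520001-24530000 (5.35 times).

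On the other side of chromosome 4, the edge at 90 kb, with 90001 as the first base to its right, scored -1.88 over the whole chromosome, close to the edge at 720 kb. It lies outside the large TAD, and only 3 bins to its left passed the limit on low totals.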
